A study of Mus musculus with 9 samples.

Results

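Tissue kallikrein transcripts were lower in the postnatal day 3 (PND3) RNA of Glis3 mutant pups than in that of wild-type (WT) pups. The genes described are Klk1 and its paralogs Klk1b3, Klk1b4, Klk1b5 and Klk1b8, which the array measured with 6 probes. They are 5 of the 24 kallikrein genes that had a probe and 5 of the 20915 genes measured. They were chosen because their ratios in this comparison were already known to be low, so their own ratios are a description and carry no test. The series compared RNA labelled as pancreas between Glis3zf/zf mutant and WT mice of the C57BL/6 strain; Glis3 encodes a DNA-binding zinc finger protein that controls transcription. Each PND3 genotype is a pool of RNA from 2 pups, of which 500 ng was amplified and labelled. The pools shared 2 Agilent 2-colour arrays. In the first, mutant RNA was in Cy3 and WT RNA in Cy5, and in the second the dyes were exchanged. The pair of arrays is therefore 1 replicate per genotype, and no p-value is given. The labels do not state the sexes of the pups.

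Kallikreins are serine proteases. Tissue kallikrein, the product of Klk1, cuts kininogen to release kinin peptides, which act through the bradykinin receptors on vessels and on salt and water transport. In the kidney it is made mainly in the connecting tubule. The mouse carries many further Klk1b copies beside Klk1, known above all from the submandibular gland, where several are under androgen control and bind growth factors such as epidermal growth factor.

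The tissue label was set against marker genes of other tissues. Of 11 acinar enzyme genes of the pancreas, 7 were measured, and none had a scanner signal over 1000 in both pools. The summed signal of the 8 with a probe was 1294 to 1548 in the WT channels and 1280 to 1475 in the mutant channels. Of 6 islet genes, 3 were measured (Ins2, Sst and Iapp). Over all 6, each with a probe, signals summed to 180.6 to 218.7 in WT and 173.8 to 206.4 in mutant RNA. All 12 nephron markers of the kidney were measured, 8 of them with signals over 1000 in both pools, and their summed signal was 237939 to 248519 in WT and 203263 to 220032 in mutant RNA. These markers go against the label of pancreas, and the samples are called by genotype and age only. Of 12 salivary gland markers, 6 were measured (Amy1, Aqp5, Bhlha15, Bpifa2, Cst10 and Pip), none over 1000 in both pools, while Smgc, Dcpp1, Dcpp2, Muc19 and Prol1 were not well above background. The Glis3 probe read 22.1 and 21.5 in WT RNA and was not well above background in mutant RNA (3.88 and 3.39). The sources used here do not give its place relative to the mutation, so it does not check the genotype.

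The probes are shown first, because the genes are close copies and a probe that shares a long run of bases with a paralog may bind both transcripts. Each probe is a 60-base oligonucleotide of the array's design, printed 5′ to 3′. Capitals mark the longest run that it shares with a probe of another kallikrein gene. Of the Klk1b5 probe, bases 19 to 48 are shown, and the capitals mark AATAAA, the letters of the common polyadenylation signal, which 1 of the 6 probes holds.
Klk1, probe A_51_P245414: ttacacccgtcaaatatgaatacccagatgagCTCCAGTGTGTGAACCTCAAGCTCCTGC
Klk1, probe A_51_P389929: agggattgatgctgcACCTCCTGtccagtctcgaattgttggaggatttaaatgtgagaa
Klk1b3, probe A_51_P413147: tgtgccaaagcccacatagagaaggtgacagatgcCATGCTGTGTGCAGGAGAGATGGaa
Klk1b4, probe A_51_P295034: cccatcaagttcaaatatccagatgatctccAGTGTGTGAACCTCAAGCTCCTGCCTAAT
Klk1b5, part of probe A_51_P395309: tcccatgttctcAATAAAgcccaccatgca
Klk1b8, probe A_51_P155503: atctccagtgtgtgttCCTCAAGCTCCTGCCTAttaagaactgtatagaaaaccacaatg
The probes differ in the longest run shared with other kallikrein probes. Only probes were compared, not whole transcripts, so these runs do not show how far a probe tells the copies apart. The first Klk1 probe and the Klk1b4 probe share 28 bases, and the Klk1b4 and Klk1b8 probes share 17. The second Klk1 probe shares no more than 8 bases with any other kallikrein probe, and the Klk1b5 probe no more than 11. The longest run shared with a probe of any gene outside the family was 12 to 16 bases. How much of each signal came from paralogs was not tested. The probes of Klk1b1 and Klk1b26 were not well above background in either pool, at 2.29 to 3.61 and 4.90 to 11.7 in scanner signal.

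Signals are given as the scanner's processed signal, for the first array (mutant in Cy3) and then the second (mutant in Cy5). Ratios are log2 of mutant over WT after background correction with an offset and loess normalization within each array. A probe's signal depends on its own binding, so signals of different probes do not rank the genes.

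Klk1, tissue kallikrein itself, was read by its brighter probe (A_51_P245414) at 3848 and 3449 in WT RNA and at 1681 and 1490 in mutant RNA. WT was above mutant on both arrays, and the channels did not overlap. The log2 ratios were -1.09 and -1.21, with a mean of -1.15, or 2.22-fold lower in the mutant pool. The dimmer Klk1 probe (A_51_P389929) shared the shortest run with other kallikrein probes, though transcripts were not compared. It read 610.2 and 522.8 in WT and 326.3 and 300.2 in mutant RNA. It was lower by less, with log2 ratios of -0.78 and -0.70 and a mean of -0.74 (1.67-fold), so the Klk1 probes lay on either side of 2-fold.

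Klk1b3 and Klk1b4 encode further secreted members of the family; the Klk1b3 product is an active protease, whereas that of Klk1b4 lacks protease activity. The Klk1b3 probe read 4055 and 3805 in WT RNA and 1676 and 1575 in mutant RNA. The log2 ratios were -1.21 and -1.25, a mean of -1.23 (2.34-fold lower). The Klk1b4 probe read 1630 and 1500 in WT and 686.2 and 625.9 in mutant RNA. Its log2 ratios were -1.14 and -1.24, a mean of -1.19 (2.28-fold lower). Both genes were thus lower by similar amounts, and on neither array did the channels overlap.

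Klk1b5 gave the brightest signal of the probes shown and the lowest ratio. It read 15856 and 13788 in WT RNA and 5614 and 5445 in mutant RNA. Its log2 ratios of -1.44 and -1.35 had a mean of -1.39, or 2.63-fold lower in the mutant pool. Klk1b8 lies at the other end of the Klk1b group from Klk1. Its probe read 1570 and 1450 in WT and 691.6 and 614.8 in mutant RNA, with log2 ratios of -1.09 and -1.14 and a mean of -1.12 (2.17-fold lower).

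**Figure D1:**
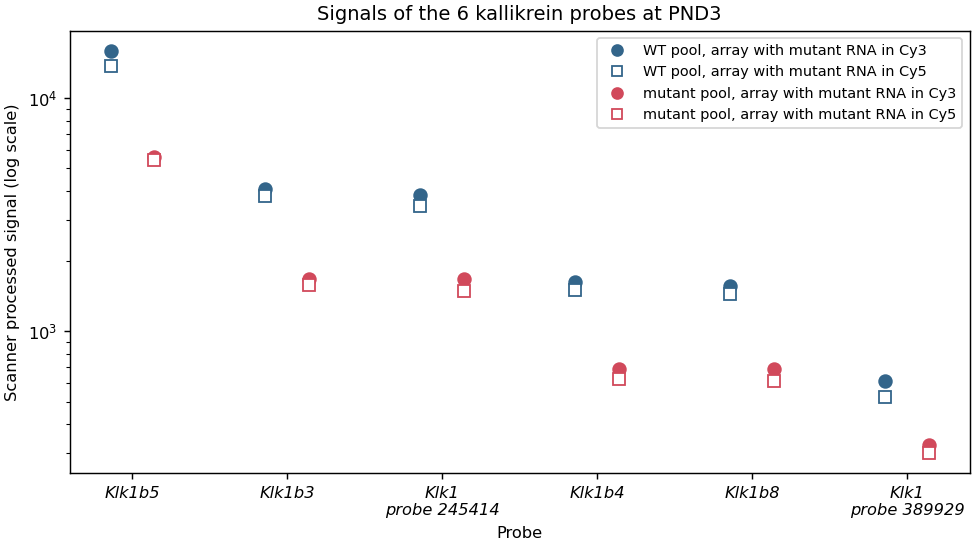
Scanner processed signal (log scale) of the 6 probes in the WT pool (blue) and the mutant pool (red), on the first array, mutant in Cy3 (filled circles), and the second, mutant in Cy5 (open squares); there are no error bars because each genotype is 1 pool. Every probe sits lower in the mutant pool on both arrays, from Klk1b5 (15856 and 13788 in WT) down to the dimmer Klk1 probe (610.2 and 522.8).

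All 6 probes passed the scanner's test for signal well above background in every channel, and the arrays differed by 0.03 to 0.12 in log2 ratio for a given probe. The scanner software's own error of the log2 ratio for these probes was 0.22 to 0.25 per array. These figures describe the measurement of these pools and say nothing of the spread between pups. By the brightest probe, all 5 genes were 2-fold or more lower on both arrays. Over all genes measured 33 were, which is 0.158%, and 0.0335% were 2-fold or more higher. As the genes were chosen on this comparison, nothing is read from the difference. Counted from the lowest ratio of 20915 genes, Klk1b5 stood at place 12, Klk1b3 at 21, Klk1b4 at 22, Klk1 at 26 and Klk1b8 at 29. In such bulk RNA, fewer cells making a transcript and less of it per cell cannot be told apart.

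A pair of further probes of the family carries file names without a current RefSeq symbol, and they were singled out after their values were seen. They are shown because of the bases they share with the probes above.
Egfbp2, probe A_51_P416647: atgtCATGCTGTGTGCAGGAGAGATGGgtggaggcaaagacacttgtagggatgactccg
V00829, probe A_52_P176659: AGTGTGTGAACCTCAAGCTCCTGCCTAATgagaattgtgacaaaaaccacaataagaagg
The Egfbp2 probe, named for an epidermal growth factor binding protein, shares 23 bases with the Klk1b3 probe. It read 1327 and 1182 in WT and 552.3 and 420.9 in mutant RNA, with log2 ratios of -1.17 and -1.36. The V00829 probe, which the file describes as a kallikrein gene, shares 29 bases with the Klk1b4 probe. It read 2718 and 2356 in WT and 1151 and 1054 in mutant RNA, with log2 ratios of -1.26 and -1.09. For comparison, the Klk1b3 probe had log2 ratios of -1.21 and -1.25, and the Klk1b4 probe of -1.14 and -1.24. Whether the shared bases bear on these values was not tested.

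The rest of the family divided by subgroup. The counts that follow are of genes with a current RefSeq symbol and leave out the Egfbp2 and V00829 probes, both of which were 2-fold lower on both arrays. Which gene either measures was not settled, and it may be a Klk1b gene counted here as dim, not measured or without a probe. Of the 21 other kallikrein genes listed, 19 had a probe, 12 were measured, and 0 differed by 2-fold on both arrays. Few genes did over the whole array (0.158% lower and 0.0335% higher), so the 0 is no result about these genes. The list's median in log2 was -0.09, against -0.01 over all genes. Of the 9 other Klk1b genes, 8 had a probe and 5 were measured, at a median of -0.36. All 5 were below 0 on both arrays, as were 37.8% of all genes. Klk1b11 passed the filter through its WT channel alone, so it counts in that direction by construction. Klk1b1, Klk1b16 and Klk1b26 were not measured, and Klk1b22 had no probe.

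These 5 Klk1b genes were dim, unlike the Egfbp2 and V00829 probes. Klk1b27 had a mean signal of 94.6 in WT RNA and of 27.3 in mutant RNA, with the arrays close together, with a log2 ratio of -0.85. Klk1b9, which encodes an epidermal growth factor binding protein, read 139.4 and 132.4 in WT and 84.9 and 66.6 in mutant RNA, with a ratio of -0.54. Klk1b24 had a ratio of -0.36 and Klk1b21, named here because it completes the group, one of -0.28. Klk1b11 read 36.8 and 30.8 in WT and was not well above background in mutant RNA, with a ratio of -0.33 (1.25-fold lower). Raising its mutant level to the lowest level well above background left it at 6.23 in log2, so the 1.25-fold is no separate bound. In each of these genes the WT channel was above the mutant channel on both arrays, at signals where the offset of 50 draws ratios toward 0. By the scanner software's ratio, which has no such offset, Klk1b27 stood at -1.79, Klk1b9 at -0.85, Klk1b24 at -0.84 and Klk1b21 at -0.76. By that ratio 2 of the other kallikrein genes with a current symbol, Klk1b27 and Klk1b11, were 2-fold lower on both arrays, beside 0.736% of all genes that were lower and 0.105% that were higher by it. The Egfbp2 and V00829 probes, at -1.38 and -1.20, were 2-fold lower on both arrays by it as well. The first Klk1 probe moved much less, from -1.15 to -1.20, and the Klk1b5 probe from -1.39 to -1.42.

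**Figure D2:**
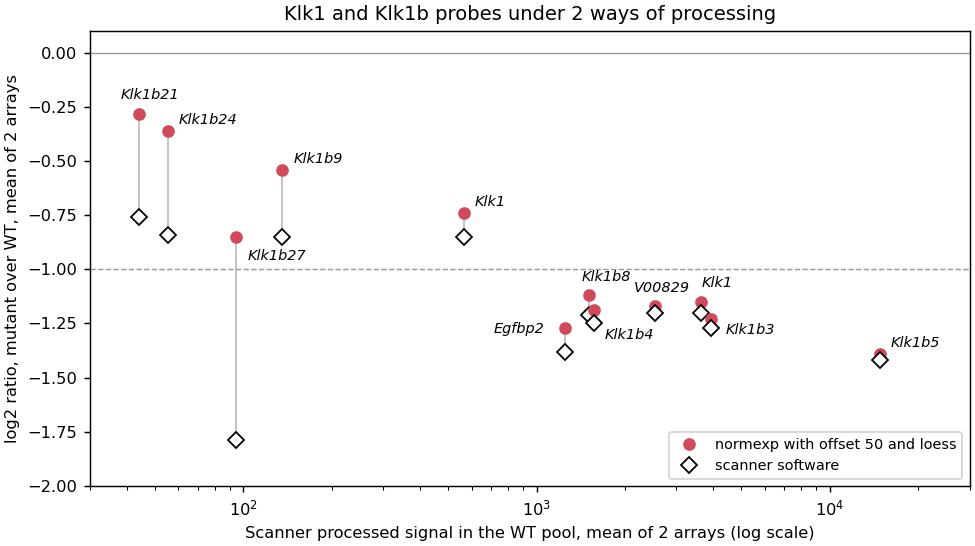
Mean log2 ratio of mutant over WT (both arrays) against the mean WT scanner signal (log scale), for each probe of Klk1 and the Klk1b group, and the Egfbp2 and V00829 probes, that was well above background in both pools; red circles are ratios after normexp with an offset of 50 and loess, open diamonds those of the scanner software, and grey lines join a probe's values. Dim probes such as Klk1b27 (-0.85 and -1.79) differ most between the ways of processing, and bright ones such as Klk1b5 (-1.39 and -1.42) least.

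Klk4 to Klk15, the proteases of skin, brain and other epithelia that sit beside the Klk1b genes, showed no such shift. Of 12 listed, 11 had a probe and 7 were measured, with mean log2 ratios between -0.11 and 0.04 and a median of -0.04. None was 2-fold apart by either way of computing the ratio. Over all genes few were, at 0.158% lower and 0.0335% higher, or 0.736% and 0.105% by the scanner software's ratio. That none was is therefore no result about this subgroup. Klk8 was the brightest of the 7 measured, at 906.2 and 859.2 in WT and 958.2 and 770.1 in mutant RNA. Its ratios were 0.12 and -0.21, so its channels changed order between the arrays. The other measured genes of this subgroup were dim, with mean WT signals of 17 to 156.1, where the offset draws ratios toward 0. By the scanner software's ratio they stood at -0.14 to 0.16. The difference between the subgroups has no test, since each genotype is 1 pool.

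The RefSeq table (GRCm38.p6) places 37 kallikrein genes and pseudogenes in 1 cluster on chromosome 7, of which 26 are protein-coding and 11 are pseudogenes. Klk1b3, Klk1b4, Klk1b5 and Klk1 follow each other at the end of the protein-coding order, and Klk1b8 lies at the other end of the Klk1b genes, next to Klk15. The ratios past 2-fold therefore lay at both ends of the Klk1b stretch, with dimmer Klk1b genes between them, whose ratios depended more on the processing. The nearest protein-coding neighbours outside the cluster were looked up after the values were seen. On the Klk14 side, Ctu1 had a log2 ratio of 0.35, Zfp819 one of -0.29 and Zfp658 one of 0.00. Beyond Klk1, 2410002F23Rik stood at -0.02, Clec11a at -0.39 and Shank1 at -0.04, and none of the 6 was 2-fold apart. Over the whole array few genes were (0.158% lower and 0.0335% higher), so this is no result about the neighbours. Zfp819 (42.1 in WT and 25.2 in mutant RNA) and Shank1 (20.6 and 23.1) were dim, where the offset draws ratios toward 0.

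**Figure D3:**
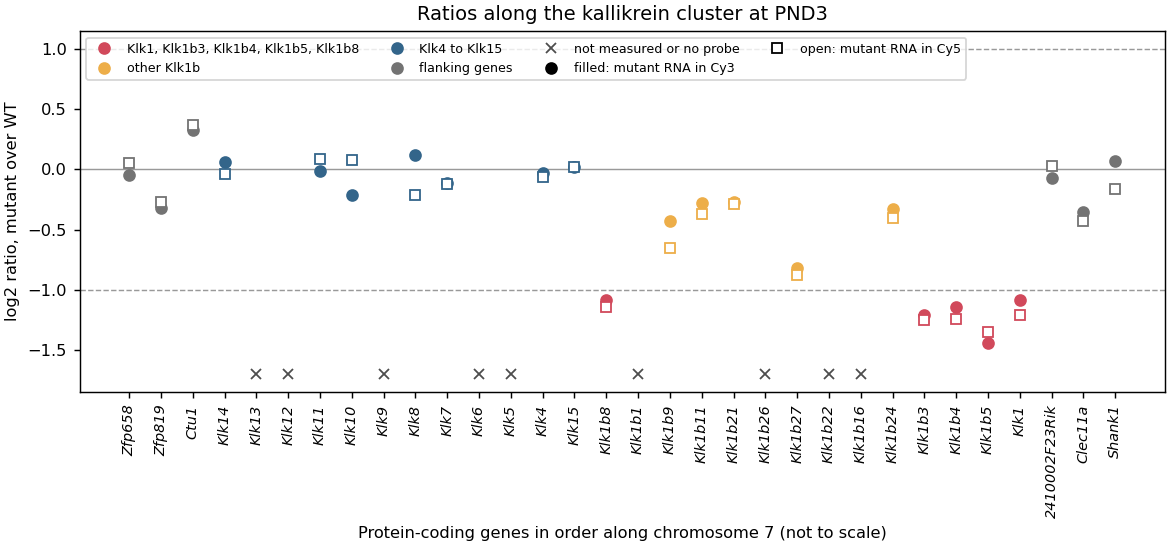
Log2 ratio of mutant over WT on the first array, mutant in Cy3 (filled circles), and the second, mutant in Cy5 (open squares), for protein-coding genes in their order along the chromosome 7 cluster and 3 neighbours on each side; dashed lines mark 2-fold, and crosses at the bottom mark genes not measured or without a probe. Klk1b8 at one end of the Klk1b genes, and Klk1b3, Klk1b4, Klk1b5 and Klk1 at the other, lie below the lower line, while Klk4 to Klk15 lie near 0.

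The start regions of the 5 genes are shown because the genes that were low together are copies within 1 cluster. Each sequence is the 100 bases before the annotated transcript start in RefSeq's GRCm38.p6, plus strand, 5′ to 3′, with TTTAAA in capitals.
Klk1, chr7:44225260-44225359: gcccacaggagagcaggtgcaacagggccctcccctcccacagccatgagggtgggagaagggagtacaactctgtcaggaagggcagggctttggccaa
Klk1b3, chr7:44198091-44198190: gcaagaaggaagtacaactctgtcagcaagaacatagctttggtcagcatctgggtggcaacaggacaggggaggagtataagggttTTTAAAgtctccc
Klk1b4, chr7:44207333-44207432: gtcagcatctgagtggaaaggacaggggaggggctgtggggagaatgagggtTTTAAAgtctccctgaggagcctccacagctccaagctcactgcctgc
Klk1b5, chr7:44216374-44216473: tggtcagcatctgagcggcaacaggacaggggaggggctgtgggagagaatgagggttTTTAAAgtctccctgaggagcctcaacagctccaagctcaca
Klk1b8, chr7:43950566-43950665: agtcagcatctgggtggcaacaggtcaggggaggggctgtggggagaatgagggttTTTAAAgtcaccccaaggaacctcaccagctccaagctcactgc
Over the 300-base windows of RefSeq's table (250 bases before to 50 after the start), the 10 pairs of these genes were 76.8% to 91.3% identical along 203 to 302 aligned columns, and Klk1b4 and Klk1b5 were the most alike pair. Against the windows of Klk4 and Klk15, alignments spanned only 10 to 43 columns. The windows of the 9 other Klk1b genes were not aligned, so whether they are as alike was not tested. The letters TTTAAA, searched on both strands, stood in the windows of 4 of the 5 genes, 13 to 48 bases before the start, and in those of 9 of the 9 other Klk1b genes. They stood in 13.2% of the 32851 promoter windows in the table. Klk1's window aligned with that of Klk1b5 at a shift of 92 bases, so that its annotated start lies further upstream in the shared sequence. Only the windows were searched, so a copy of TTTAAA past the end of Klk1's window would be missed. The TATA box letters TATAAA stood in none of the 5 windows and in 13.6% of all. AGAACA, the core of androgen and glucocorticoid receptor elements, stood in 1 of 5 (Klk1b3), in 1 of the 9 others (Klk1b24) and in 19.0% of all windows. The full palindromic androgen response element, searched as that core, 3 free bases and the core's reverse complement, stood in none of the 5 and in 0.00913% of all. A match is a description of letters only.

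Genes of the kallikrein-kinin pathway had ratios between -0.35 and 0.46. Of 22 listed, 20 had a probe, 16 were measured and 0 reached 2-fold on both arrays, as few genes did over the whole array (0.158% lower and 0.0335% higher), so the 0 is no result about the pathway. The list's median in log2 was 0.00, against -0.01 over all genes. Of the 16, 6 were below 0 on both arrays, beside 37.8% of all genes, and 6 were above. Kng1, the kininogen from which kinins are cut, read 5172 and 4597 in WT and 5474 and 4972 in mutant RNA, a ratio of 0.10. Bdkrb2, the constitutive bradykinin receptor, was dim in both pools, at 56.2 and 33.3 in WT and 48.5 and 33.6 in mutant RNA, a ratio of -0.07.

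Among enzymes that break down peptides, Enpep, an aminopeptidase that acts on angiotensin, had a ratio of -0.35 (13207 and 11298 in WT, 9812 and 9305 in mutant RNA). Ace, which inactivates bradykinin, had one of -0.16. Among inhibitors, Spint1, a Kunitz-type inhibitor of serine proteases on epithelial cells, had the highest ratio of the list at 0.46. It read 8018 and 7435 in WT and 11259 and 9938 in mutant RNA, with mutant above WT on both arrays. Serping1, the C1 inhibitor that blocks plasma kallikrein, had a ratio of 0.14. The serpin Serpina3n was dim (27.3 in WT and 17.4 in mutant RNA) and not well above background in mutant RNA on the first array; its ratio was -0.14, and -0.66 by the scanner software.

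Growth factors, receptors and protease substrates linked to these enzymes were all measured (12 of 12), with none 2-fold apart and a median of 0.09 (-0.03 with median centring in place of loess). Over the whole array few genes were 2-fold apart (0.158% lower and 0.0335% higher), so their absence here is no result about the list. Egf, which encodes epidermal growth factor, read 746.1 and 633.7 in WT and 744.7 and 669.3 in mutant RNA, a ratio of 0.03. Ren1, which encodes renin, was bright in both pools, at 44165 and 38149 in WT and 40354 and 37002 in mutant RNA. Its ratios were -0.27 and 0.09, so the arrays differed in sign.

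The largest ratios of that list were above 0 on both arrays. Scnn1g, the gamma subunit of the epithelial sodium channel, stood at 0.43 (3792 and 3543 in WT, 5422 and 4540 in mutant RNA). Prss8, a membrane protease that activates this channel, stood at 0.32, as did Egfr, the epidermal growth factor receptor. Tmprss2, a membrane serine protease, stood at 0.26. In these genes the channels were ordered opposite to those of the kallikreins.

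Markers of the distal convoluted tubule, connecting tubule and nearby collecting duct, the stretch where tissue kallikrein is made, were mixed. All 13 were measured, at a median of 0.15 (-0.04 with median centring in place of loess). Their summed signal was 102684 to 112459 in WT and 106095 to 116591 in mutant RNA. Calb1, the calcium-binding protein of the connecting tubule, had a ratio of 0.11 (24197 and 22642 in WT, 27118 and 23515 in mutant RNA). Aqp2, the water channel of principal cells, had one of 0.49. The 1 marker that was 2-fold lower on both arrays was Slc26a4, the anion exchanger pendrin of intercalated cells. It read 7300 and 6650 in WT and 3060 and 2662 in mutant RNA, a ratio of -1.26, in the range of the kallikreins. Hsd11b2, which protects the mineralocorticoid receptor from glucocorticoids, was next at -0.70. Atp6v1b1, another intercalated cell marker of the list, went the other way, with a ratio of 0.19. It read 1264 and 1206 in WT and 1536 and 1314 in mutant RNA.

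**Figure D4:**
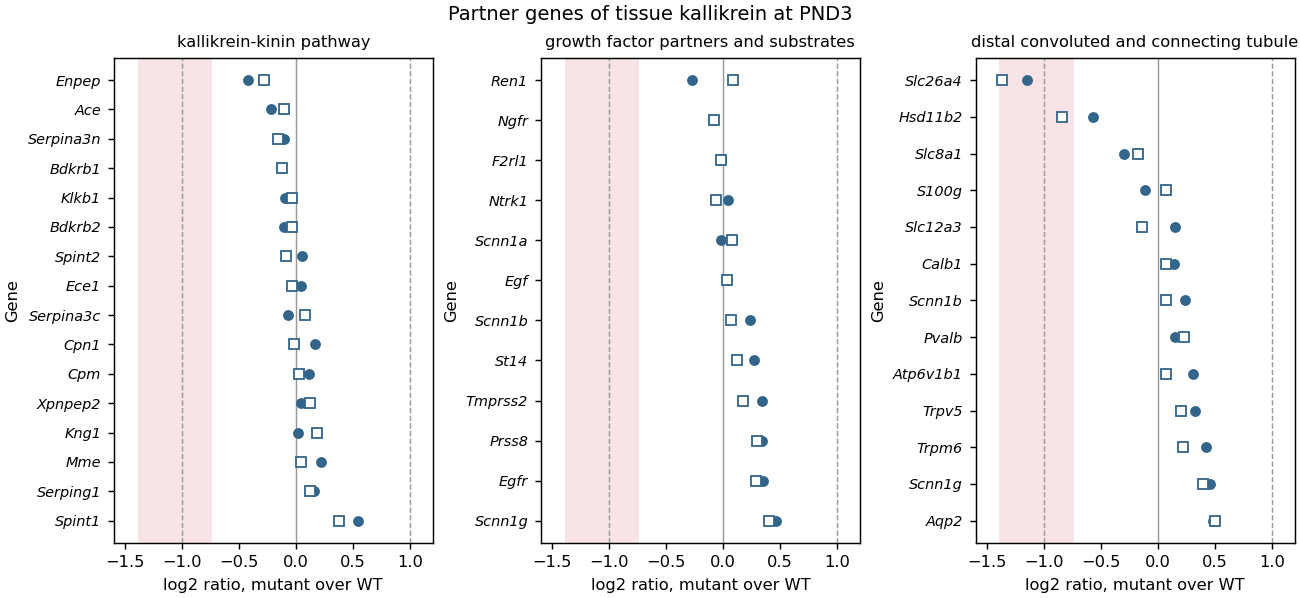
Log2 ratio of mutant over WT on the first array, mutant in Cy3 (filled circles), and the second, mutant in Cy5 (open squares) for the measured genes of 3 lists; dashed lines mark 2-fold and the shaded band spans the mean ratios of the 6 kallikrein probes (-1.39 to -0.74). In the pathway and growth factor panels no gene reaches the band, and in the tubule panel Slc26a4 lies in it on both arrays.

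Other transcripts differed between the pools beside the kallikreins, and their part in the kallikrein ratios was not tested. Of 15 oocyte and ovary genes, 12 were measured and 8 were 2-fold lower on both arrays, beside 0.158% of all genes. In 5 of the 12 neither mutant channel was well above background, and in 1 more the mutant channel was below that on 1 array, so that they passed the filter through WT; 3 of the 8 are among them. The other 5 of the 8 (Padi6, Zp3, Gdf9, Amhr2 and Khdc3) were well above background in both pools. The ratios depended on the processing, with a median over the measured genes of -1.32, of -1.79 with an offset of 16 and of -3.23 by the scanner software's ratio. The list's summed signal was 3038 to 3360 in WT and 496.5 to 582.0 in mutant RNA, and Bmp15 and Oosp1 were not measured. Foxl2 was the 1 measured gene of this list above 0 on both arrays, at 0.10 (82.3 in WT and 92.2 in mutant RNA). Of 5 sex-linked genes 4 were measured. The Y-linked Eif2s3y stood at 1.29, Ddx3y at 0.91 and Kdm5d at 0.37, all above 0 on both arrays. By the scanner software's ratio they stood at 1.75, 1.49 and 1.22. Xist stood at 0.03, and Uty was not measured. The kidney androgen-regulated protein gene Kap read 82793 and 81861 in WT and 56708 and 53498 in mutant RNA, a ratio of -0.59. Of 9 fat genes 8 were measured, at a median of -0.56, and all 8 were below 0 on both arrays, as were 37.8% of all genes. Ucp1, the uncoupling protein of brown fat, was 2-fold lower on both arrays at -1.17, in the range of the kallikreins, followed by Cidea at -0.95, Plin1 at -0.90 and Adipoq at -0.85. The list's summed signal was 70444 to 74858 in WT and 54983 to 67402 in mutant RNA, most of it from Fabp4 (63506 in WT, ratio -0.21), and Lep was not measured. All 10 leukocyte genes were measured, at a median of -0.20, with summed signals of 28284 to 31145 in WT and 23650 to 25681 in mutant RNA. Of 9 genes of Leydig and adrenal steroid cells 7 were measured, at a median of -0.01. The 8 with a probe had summed signals of 1055 to 1098 in WT and 1062 to 1103 in mutant RNA. The salivary markers with a probe (11 of 12) summed to 727.3 to 786.7 in WT and 1062 to 1239 in mutant RNA. Aqp5, a water channel, carried the difference, with a ratio of 0.89 (376.4 in WT and 754.8 in mutant RNA). The other 5 measured markers had ratios of -0.06 to 0.04.

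The genes whose pair of array ratios lay nearest to that of Klk1b5 were named by the Euclidean distance over the 2 arrays, leaving out kallikreins. LOC671950, without a current RefSeq symbol, was nearest at 0.03, with ratios of -1.43 and -1.32 and mean signals of 2294 in WT and 851.3 in mutant RNA. Khdc3, an oocyte gene, followed at 0.13, Amhr2, the anti-Müllerian hormone receptor gene, at 0.14, the carboxylesterase gene Ces1g at 0.19, and NAP115147-1, again without a current symbol, at 0.20. Among the kallikreins Klk1b3 lay at 0.25, Klk1b4 at 0.32, Klk1 at 0.38 and Klk1b8 at 0.41, so each of the 5 named genes was nearer. For dimmer genes this order rests on the offset of 50: by the scanner software's ratio Khdc3 stood at -2.89, Amhr2 at -1.94 and Ces1g at -1.64, further from Klk1b5 (-1.42) than Klk1b3 (-1.27) was. Likeness over 2 arrays of the same pools describes the size of a ratio and no more.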

How the data were processed

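Each PND3 array was read with the scanner software Agilent Feature Extraction, version 9.1.3.1 per the file headers and 8.1 per the submitters' processing notes. Per the file headers, the deposited files hold intensities of each spot and of its local background, processed signals after background subtraction and dye normalization, quality flags, and a log10 ratio of Cy5 over Cy3 with its error. The deposited value table holds log2 ratios; set against the scanner ratio of the same array it ran as mutant over WT on both (r = 1.0, column median 0).

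With R 4.3.3 and limma 3.58.1, background was corrected by normexp (offset 50) and each array was loess-normalized, control spots having weight 0. The sign of the first array, with mutant in Cy3, was turned. Of 45018 spots per array 43379 were not controls; 18 and 26 outlier spots were left out, and 0 were saturated. Between 72.8% and 76.6% of spots per channel were well above background. The number of pools, not depth, limits the precision. Of 41136 probes, 22917 matched a RefSeq symbol by accession. Kallikreins were named by accession, since older symbols clash. A gene was measured by its brightest probe among those that were, on both arrays, well above background in 1 genotype or both, and was called when 2-fold or more apart in the same direction on both. Across genes the array ratios had r = 0.682, and genes are not replicates. The background correction and loess steps were checked on simulated data in which only bright probes differed. That check did not cover ratios of dim probes, the filter, the 2-fold calls or the bound. A bound raises a dim level, after loess and Aquantile normalization, to the lowest level well above background in that channel.

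The members and gene lists were chosen with earlier results of these data known. Named genes were the members with every probe, up to 4 of the other kallikreins and of the pathway and growth factor lists with the largest ratios (5 for the pathway, where a tie stood), Kng1, Bdkrb2, Egf, Ren1 and Glis3, and the 5 genes most like Klk1b5; the marker genes named, Klk8, Klk1b21 and the cluster's neighbours were chosen after their values were seen. A gene of the growth factor list is not reported here and was left out of that list's values. Alternatives changed the source of the ratio, normalization, offset, arrays, filter and probe rule. The embryonic day 15.5 arrays were not analysed here, because their probe sets were not paired with genes; the tests planned for them were not run.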

Additional observations from a re-analysis of the deposited data

How the results depend on the processing

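All 6 kallikrein probes were below 0 under each of the 6 alternatives run for them, at -1.63 to -0.70. The count of the 5 genes at 2-fold stayed 5 under all alternatives but the mean of a gene's probes, where it was 4 because Klk1's probes differ. The median of the 6 probes went from -1.17 to -1.35 with median centring, under which the median over all genes went from -0.01 to -0.11. Genes 2-fold apart numbered 40, against 176 with the scanner ratio, 176 with the deposited value table and 70 with an offset of 16. The other kallikreins' median of -0.09 was -0.16 by the first array alone, -0.17 by the second alone, -0.13 with the scanner ratio, -0.13 with the value table, -0.16 with median centring, -0.11 with an offset of 16, -0.10 with the mean of probes and -0.04 without the filter on dim probes. The growth factor list's median of 0.09 was 0.14 by the first array alone and -0.03 with median centring, which also took the pathway list's from 0.00 to -0.10. The cause of these moves was not tested. No paired analysis was possible because each PND3 genotype is 1 pool and the embryonic day 15.5 probe sets could not be named; the alternatives planned for that age were not run. Dim Klk1b probes limit what can be said of those genes.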
